A study of Mus musculus with 13 samples.

Results

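The 5 genes described here, Myc, Srf, E2f1, Ccnd1 and Btrc, are growth regulators whose messages have been reported to be bound by the IGF2 mRNA-binding proteins (IMPs). They are given by name among 43629 genes in the count tables, and each matched 1 Ensembl gene; the rule that names them uses no measured value, although earlier results of these data were known when they were chosen. The data are RNA sequencing counts from mouse embryo fibroblasts (MEFs) labelled E12.5 and grown in medium with 10% fetal bovine serum. In 9 libraries RNA was recovered by immunoprecipitation, with 3 libraries each for control IgG, an antibody to IMP1 (gene Igf2bp1) and an antibody to IMP2 (gene Igf2bp2). In the other 4 libraries total RNA was sequenced from wild-type and IMP1-deleted cells of the IMP1 line and from wild-type and IMP2-deleted cells of the IMP2 line, with 1 library for each. The study compared the RNA clients of IMP1 and IMP2 and the effect of deleting each protein. The labels do not give the genotype of the cells used for the pull-downs, how the deletions were made, or whether replicate pull-downs came from separate cultures, so p-values measure the spread between these libraries, which may be technical.

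IMPs are RNA-binding proteins that associate with selected messages and influence their stability, location and translation. The Myc message is the classical IMP1 client: IMP1 was first isolated as a factor that binds the coding region of Myc and shields it from decay. MYC and SRF are transcription factors that drive growth and early serum-response genes, cyclin D1 with its kinases releases E2F1 from the retinoblastoma proteins at the start of the cell cycle, and BTRC (beta-TrCP) is the substrate-recognition subunit of a ubiquitin ligase that destroys signalling and cell-cycle proteins.

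Libraries held between 11430002 and 21756430 counts assigned to genes, so a floor of 3 counts lay between 0.138 and 0.263 CPM (counts divided by library size and scaled to a fixed total), and every member was well above it in all 13 libraries. Reads tallied as falling in no counted feature made up 24.2% to 25.2% of the IgG libraries, against 7.43% to 7.67% with IMP1 and 4.70% to 5.22% with IMP2. Where these reads lay is not given by the tally, and their part in the results was not tested. IMP2 pull-down replicate 1 stood apart from its group, with a count dispersion of 7.70 and 8.07 times sampling noise against its partners, where other replicate pairs gave 1.14 to 2.75; values without it are given below. Fibroblast markers summed to 9550 to 17397 CPM in the pull-downs and 23151 to 39123 CPM in total RNA. Epithelial markers (Epcam, Krt8, Krt18 and Cdh1) summed to 0.257 to 0.570 CPM in the pull-downs and 0.0794 to 2.44 CPM in total RNA. Erythroid markers (Hba-a1, Hbb-bs and Alas2) summed to 0.222 to 4.29 CPM and 0 to 0.108 CPM. Endothelial markers (Pecam1, Cdh5 and Kdr) summed to 10.1 to 19.7 CPM and 0.389 to 5.32 CPM. Epcam, Krt8, Hba-a1 and Hbb-bs were each under 1 CPM in all libraries. Summed macrophage markers (Adgre1, Cd68, Csf1r and Ptprc) were 7.76 CPM in IMP1 wild type, 9.03 CPM in IMP2 wild type, 1.35 CPM in the IMP1 knockout and 69.2 CPM in the IMP2 knockout, so they moved with the knockouts described below; their part in those differences was not tested. Igf2bp1 was 3.21 CPM in the IMP1 knockout against 32.3 CPM in its wild type, and Igf2bp2 was 28.2 CPM in the IMP2 knockout against 149 CPM in its wild type, so each deleted gene was lowest in its own knockout. The other IMP genes differed too. In the IMP2 knockout Igf2bp3 (ratio to its wild type 0.464) and Igf2bp1 (0.678) were also lower. In the IMP1 knockout the ratio was 0.774 for Igf2bp2 and 1.23 for Igf2bp3.

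Relative to IgG, the IMP1 pull-down held more Myc and Srf message, marginally more Btrc and less E2f1, and the IMP2 pull-down held more Ccnd1, Srf and E2f1 and marginally more Btrc. By edgeR's quasi-likelihood test with Benjamini-Hochberg adjustment over 14076 genes, 3 of the 5 members were higher with IMP1 (31.7% of all genes tested were) and 1 was lower (31.9% of all genes). With IMP2, 4 of the 5 were higher (40.3% of all genes tested were) and 0 were lower (37.3% of all genes). The direct comparison of IMP1 with IMP2 gave 1 member higher in IMP1 (34.1% of all genes tested) and 2 lower (37.3% of all genes). Most genes tested passed in each of these comparisons, so passing does not set the members apart. Without IMP2 replicate 1, 5 members passed against IgG with IMP1, 4 with IMP2 and 3 between the antibodies. Of 14536 genes tested in that fit, 4792 were higher and 4937 lower with IMP1, and 5947 and 5467 with IMP2. Between the antibodies 4746 were higher in IMP1 and 5357 lower, so these counts do not set the members apart either. Both IMP groups were compared with the same IgG libraries.

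**Figure D1:**
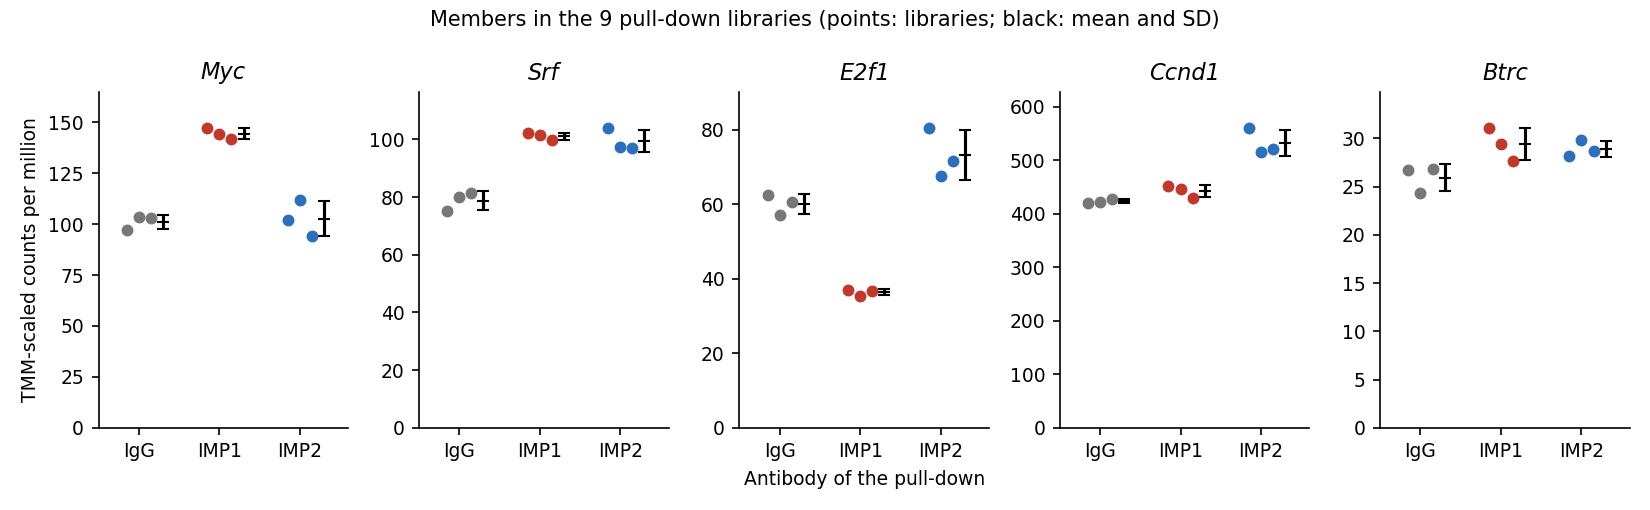
TMM-scaled CPM of each member (vertical axes, from 0) in the 9 pull-down libraries, with points for libraries and black bars for the mean and SD of each antibody (n = 3). Myc is highest with IMP1, E2f1 is lowest with IMP1, and Ccnd1 is highest with IMP2.

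Myc (ENSMUSG00000022346, chr15:61985341-61990361 in GRCm38, protein-coding) encodes the basic helix-loop-helix factor that drives ribosome production and metabolism. Its level was 97.1, 103 and 103 TMM-scaled CPM in the 3 IgG libraries. In the IMP1 libraries it was 147, 144 and 142 CPM, and in the IMP2 libraries 102, 112 and 94.4 CPM. All IMP1 libraries lay above all others, while the IMP2 and IgG libraries overlapped. The mean was 144 ± 2.80 CPM (SD, n = 3) with IMP1 and 101 ± 3.49 CPM (SD, n = 3) with IgG, a 1.43-fold difference (log2 fold change 0.51, SE 0.0508, edgeR adjusted p = 1.06e-08) at percentile 89.0 of all genes tested. With IMP2 the mean was 103 ± 8.69 CPM (SD, n = 3). The log2 fold change against IgG was 0.02, with a 95% interval of -0.08 to 0.13 and an edgeR adjusted p of 0.698. It moved to -0.16 under upper quartile scaling (edgeR adjusted p = 0.00831) and to 0.20 under total count scaling (edgeR adjusted p = 0.00160). The call for Myc with IMP2 was thus lower under the first of these scalings and higher under the second. IMP1 against IMP2 gave a log2 fold change of 0.49 (SE 0.0489, edgeR adjusted p = 6.20e-09), 0.48 without IMP2 replicate 1 and 0.16 under total count scaling. Myc was the only member higher in IMP1 than in IMP2 with the scaling used here.

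The Myc paralogs were scarce. Mycn, the neural member of the family, was not detectable above the floor in any pull-down group, with means of 0.105 CPM with IgG, 0.0824 CPM with IMP1 and 0.0662 CPM with IMP2, and was not tested. Mycl was 1.47 CPM with IgG, 2.47 CPM with IMP1 and 2.51 CPM with IMP2, and it was higher than IgG with both (log2 fold change 0.76 for each, edgeR adjusted p = 0.00977 and 0.00511). In total RNA, where it is named after its values were seen, Mycl had 115 counts in IMP2 wild type and 4 in the IMP2 knockout (ratio 0.0358), and 125 and 42 counts in the IMP1 line (ratio 0.419, and 0.521 against IMP2 wild type).

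Srf (ENSMUSG00000015605, chr17:46546838-46558267 in GRCm38, protein-coding) encodes serum response factor, which binds CArG boxes in the promoters of immediate-early and cytoskeletal genes. Its IgG values were 75.1, 79.9 and 81.3 CPM. The IMP1 values were 102, 101 and 99.8 CPM and the IMP2 values 104, 97.5 and 96.9 CPM. Both IMP groups lay wholly above IgG and overlapped each other. The log2 fold change was 0.36 with IMP1 (SE 0.0450, edgeR adjusted p = 3.61e-07) and 0.34 with IMP2 (SE 0.0443, edgeR adjusted p = 5.09e-07). Both calls held with smaller values under upper quartile scaling (0.19 and 0.16), and total count scaling gave 0.21 and 0.51. IMP1 against IMP2 gave 0.03 with a 95% interval of -0.06 to 0.11 (edgeR adjusted p = 0.591), and -0.30 under total count scaling.

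CArG boxes before a start of Srf are shown here because its own message and those of its targets are followed in the knockouts below. In the RefSeq promoter table of GRCm38.p6, which held windows for Srf and E2f1 among the 5 members, a CArG box (CC, then 6 bases that are A or T, then GG) was searched in the 250 bases before each gene start. The motif is its own reverse complement, so 1 scan covers both strands. The table's start for Srf lies inside the gene span given above, so the stretch before that start (chr17:46556175-46556284, minus strand) is also within the span. It held 2 boxes, and the stretch before Myl9 (chr2:156775263-156775352, plus strand), a myosin light chain gene on the SRF target list, held 1; capitals mark the boxes.
Srf: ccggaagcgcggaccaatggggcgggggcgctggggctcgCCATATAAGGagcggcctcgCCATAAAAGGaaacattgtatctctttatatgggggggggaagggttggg
Myl9: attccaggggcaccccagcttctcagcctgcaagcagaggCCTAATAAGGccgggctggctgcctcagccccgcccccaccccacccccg
A box was present for 1.62% of 27025 genes of the table and for 4 of the 14 SRF target genes with a window (28.6%). A match describes the letters of the window and not occupancy by SRF.

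E2f1 (ENSMUSG00000027490, chr2:154559400-154569892 in GRCm38, protein-coding), an activator of DNA replication genes, showed the widest separation of the 2 antibodies. Its IgG values were 62.5, 57.2 and 60.5 CPM. With IMP1 it was 36.9, 35.4 and 36.8 CPM, and with IMP2 it was 80.5, 67.5 and 71.6 CPM. The 3 groups did not overlap, with IMP2 highest, IgG between and IMP1 lowest. E2f1 was 1.65-fold lower with IMP1 than with IgG (log2 fold change -0.73, SE 0.0638, edgeR adjusted p = 1.59e-09; percentile 16.5 of all genes tested). It was 1.21-fold higher with IMP2 (log2 fold change 0.28, SE 0.0579, edgeR adjusted p = 0.000163), a call that was lost under upper quartile scaling (0.10) and held under total count scaling (0.45). IMP1 against IMP2 gave a 2.01-fold lower level (log2 fold change -1.004, SE 0.0601, edgeR adjusted p = 9.96e-13; percentile 7.62), and -0.95 without IMP2 replicate 1.

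The other E2F genes did not share that pattern. E2f2 and E2f3, the other activator E2Fs, were higher with IMP1 than IgG (log2 fold change 0.36 and 0.46, edgeR adjusted p = 0.000571 and 2.29e-08) and lower with IMP2 (-0.26 and -0.18, edgeR adjusted p = 0.00664 and 0.00201). E2f4, a repressor that acts with the pocket proteins, was 61.8 ± 0.581 CPM (SD, n = 3) with IgG, 64.1 ± 4.08 CPM with IMP1 and 101 ± 0.822 CPM with IMP2. It was higher with IMP2 (log2 fold change 0.71, edgeR adjusted p = 9.25e-12) and gave 0.05 with IMP1 (edgeR adjusted p = 0.367). E2f6 was higher with both antibodies (0.43 and 0.49), and E2f5 passed with neither (0.09 and 0.00). The atypical repressors E2f7 and E2f8 were lower with IMP2 (-0.39 and -0.23) and gave -0.02 and -0.14 with IMP1, which did not pass. The IMP2 and IgG libraries overlapped for E2f2 and E2f8. Of the 11 paralogs of the members tested, 5 were higher and 5 lower with IMP2, but 5 and 2 under total count scaling. All genes gave 5674 and 5253 with IMP2, and 6987 and 4238 under that scaling. With IMP1 5 paralogs were higher and 1 lower, and 5 and 5 under upper quartile scaling. All genes gave 4457 and 4491, and 2952 and 6391.

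Ccnd1 (ENSMUSG00000070348, chr7:144929931-144939831 in GRCm38, protein-coding) encodes cyclin D1. Its IgG values were 421, 422 and 427 CPM. The IMP1 values were 451, 446 and 430 CPM and the IMP2 values 560, 515 and 522 CPM. All IMP2 libraries lay above the rest, and the IMP1 libraries lay just above IgG without overlap. With IMP2 the log2 fold change was 0.33 (SE 0.0352, edgeR adjusted p = 2.09e-08), with 0.15 under upper quartile and 0.50 under total count scaling, both past the threshold. With IMP1 the log2 fold change was 0.06 (95% interval -0.01 to 0.14, edgeR adjusted p = 0.121), and its sign turned with the scaling. It was -0.11 under upper quartile (edgeR adjusted p = 0.0125) and -0.09 under total count scaling (edgeR adjusted p = 0.0301). Under both, Ccnd1 passed as lower with IMP1. IMP1 against IMP2 gave -0.27 (SE 0.0349, edgeR adjusted p = 4.89e-07), and -0.59 under total count scaling.

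The 3 D-type cyclins had different profiles. Ccnd2 was lower with both antibodies, at 926 ± 5.05 CPM (SD, n = 3) with IgG, 593 ± 5.85 CPM with IMP1 and 588 ± 15.9 CPM with IMP2 (log2 fold change -0.64 and -0.65, edgeR adjusted p = 7.13e-14 and 2.37e-14). Ccnd3 was 36.5 ± 2.14 CPM (SD, n = 3) with IgG and 62.0 ± 3.46 CPM with IMP2 (log2 fold change 0.76, edgeR adjusted p = 1.07e-10). With IMP1 Ccnd3 was 33.4 ± 1.28 CPM (log2 fold change -0.13, edgeR adjusted p = 0.0881).

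Btrc (ENSMUSG00000025217, chr19:45363688-45533343 in GRCm38, protein-coding) had the smallest differences that passed. Its IgG values were 26.7, 24.3 and 26.8 CPM. The IMP1 values were 31.1, 29.4 and 27.7 CPM and the IMP2 values 28.2, 29.9 and 28.7 CPM. Both IMP groups lay above IgG and overlapped each other. The log2 fold change was 0.18 with IMP1 (SE 0.0682, edgeR adjusted p = 0.0275), 0.01 under upper quartile scaling and 0.02 under total count scaling. With IMP2 it was 0.15 (SE 0.0664, edgeR adjusted p = 0.0391), -0.02 under upper quartile scaling and 0.33 under total count scaling, where it passed. DESeq2's Wald test gave adjusted p = 0.0760 and 0.237, so neither Btrc call held there. Its paralog Fbxw11 (beta-TrCP2) was higher with both, at log2 fold changes of 0.38 with IMP1 (edgeR adjusted p = 3.19e-08) and 0.21 with IMP2 (edgeR adjusted p = 4.52e-05).

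**Figure D2:**
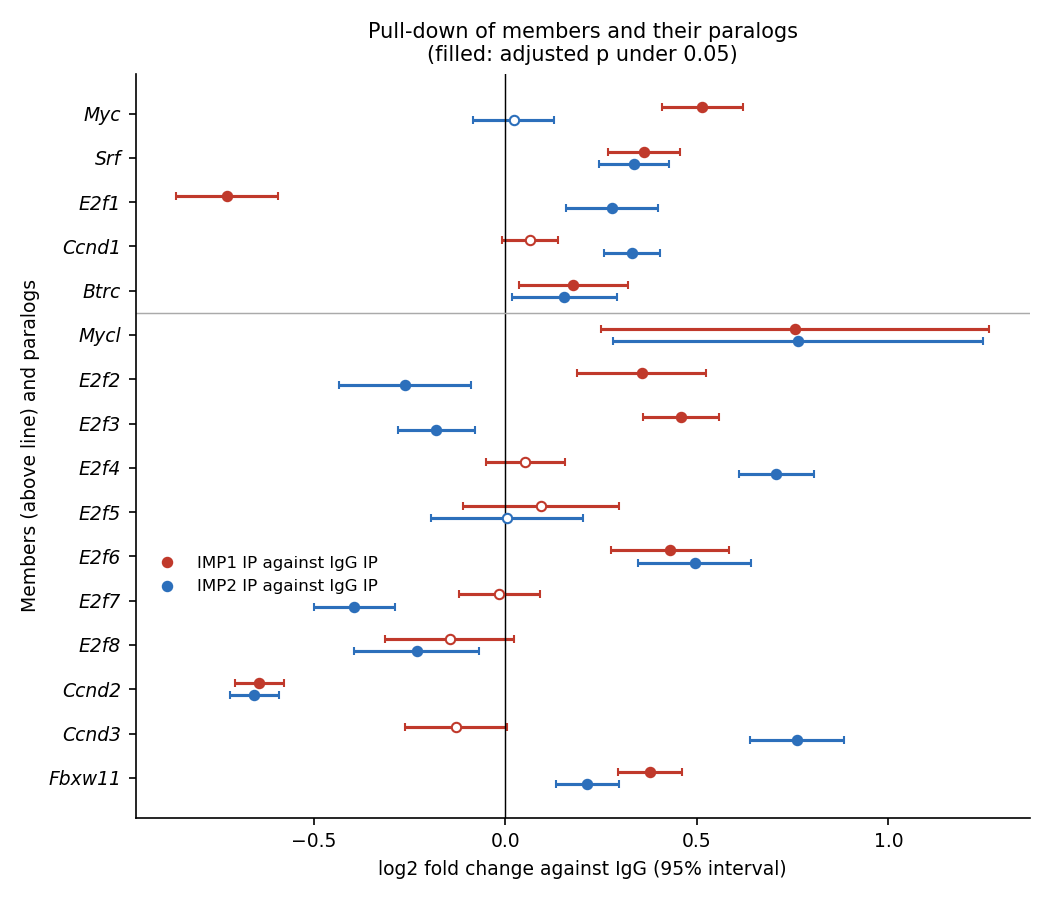
log2 fold change against IgG (horizontal axis, with 95% intervals) for the 5 members, above the line, and 11 paralogs, in the IMP1 (red) and IMP2 (blue) pull-downs, with filled points for adjusted p under 0.05. E2f1 is the member that passed on opposite sides of 0 for the 2 antibodies, whereas E2f2 and E2f3 sit on the reverse sides. All values use TMM scaling.

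Against wild-type total RNA, with the 2 wild-type libraries added to 1 fit of 11 libraries, Srf passed with neither antibody, Btrc no longer passed with IMP2 and Myc passed with IMP2, where against IgG Srf had passed with both, Btrc with IMP2 and Myc with IMP1 alone. Of the 5 members, 2 were higher in the IMP1 pull-down (41.4% of 16157 genes tested) and 1 was lower (44.7%); 3 were higher in the IMP2 pull-down (39.5%) and 0 lower (41.6%). Myc was 77.5 CPM in the wild-type mean on this scale and 150 CPM with IMP1 (log2 fold change 0.96, SE 0.0872, edgeR adjusted p = 1.32e-09). It was also higher with IMP2 (0.43, edgeR adjusted p = 0.000129) and with IgG (0.40, edgeR adjusted p = 0.000242). E2f1 was lower with IMP1 (-0.56, edgeR adjusted p = 5.07e-07) and higher with IMP2 (0.40, edgeR adjusted p = 3.24e-05). Srf gave 0.14 with IMP1 and 0.07 with IMP2, neither past the threshold, while in IgG it was lower than in total RNA (-0.27, edgeR adjusted p = 0.00473). Ccnd1 gave -0.03 with IMP1 (edgeR adjusted p = 0.643) and was higher with IMP2 (0.19, edgeR adjusted p = 0.00465). Btrc passed with IMP1 (0.19, edgeR adjusted p = 0.0375) and not with IMP2 (0.13, edgeR adjusted p = 0.157).

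Several paralogs stood much farther from total RNA than any member, in the IgG libraries as well. E2f2 was 0.981 CPM in wild-type total RNA and 21.3 CPM with IgG on the same scale (log2 fold change 4.46), 28.3 CPM with IMP1 and 17.9 CPM with IMP2. E2f7 was 5.40 CPM in wild-type total RNA and 87.6 CPM with IgG (log2 fold change 4.03). Igf2bp1 itself was 25.2 CPM in wild-type total RNA, 156 CPM with IgG and 200 CPM with IMP1. In the other direction, Ccnd3 was 130 CPM in wild-type total RNA, against 36.9 CPM with IgG. The labels do not tie the pull-down cells to either wild-type line, so a difference between pulled-down and total RNA and a difference between cells cannot be told apart here.

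In the knockouts, Myc and Ccnd1 were lower than wild type in both lines, and E2f1 and Srf were lower in the IMP2 knockout against either wild type. These are 1 library against 1, with no replicate check, and the intervals are exact binomial and cover counting error only. In bulk RNA, fewer cells of a type and less RNA per cell cannot be told apart. Myc was 98.5 CPM in IMP1 wild type and 32.0 CPM in the IMP1 knockout, a ratio of 0.325 (95% interval 0.290 to 0.365), or 3.07-fold lower. It was the only member past 2-fold, a change shown by 6.36% of 9785 genes downward and 5.27% upward. Myc was 74.3 CPM in IMP2 wild type and 54.1 CPM in the IMP2 knockout, a ratio of 0.728 (0.668 to 0.794). No member passed 2-fold in the IMP2 knockout, where 7.54% of 9956 genes were 2-fold lower and 7.63% higher. The 2 wild types already differed in Myc by a ratio of 1.33, and Srf by 1.32, where only 0.409% of 9525 genes were 2-fold higher in IMP1 wild type and 0.168% 2-fold lower. Against the other line's wild type, the Myc ratio was 0.431 for the IMP1 knockout and 0.550 for the IMP2 knockout, below 1 in all 4 pairings.

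Ccnd1 was 555 CPM in IMP1 wild type and 330 CPM in the IMP1 knockout (ratio 0.595, interval 0.573 to 0.618). In the IMP2 line it was 494 CPM and 371 CPM (ratio 0.751, interval 0.726 to 0.776), and against the other wild type the ratios were 0.669 and 0.668. E2f1 was 61.0 CPM in IMP1 wild type and 63.3 CPM in the IMP1 knockout, with an interval for the ratio of 0.940 to 1.14 that includes 1; the ratio against IMP2 wild type was 0.991. In the IMP2 line it was 63.9 CPM and 40.4 CPM (ratio 0.632, interval 0.573 to 0.697), and 0.662 against IMP1 wild type. Srf was 122 and 95.9 CPM in the IMP1 line (ratio 0.788) and 92.2 and 75.6 CPM in the IMP2 line (ratio 0.819, interval 0.760 to 0.883). The Srf ratio for the IMP1 knockout was 1.04 against IMP2 wild type, so its direction there depended on the wild-type library. For the IMP2 knockout the Srf ratio was 0.621 against IMP1 wild type (interval 0.577 to 0.668). Btrc was 28.4 and 33.6 CPM in the IMP1 line (ratio 1.18, interval 1.03 to 1.36) and 31.3 and 28.3 CPM in the IMP2 line (ratio 0.907, interval 0.799 to 1.03).

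**Figure D3:**
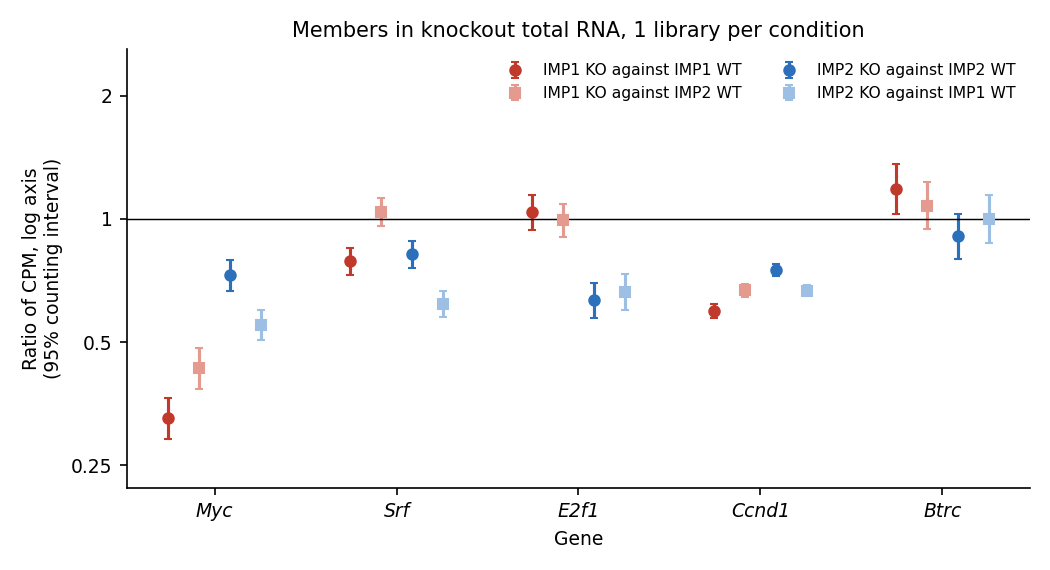
Ratio of CPM in knockout to wild-type total RNA (vertical log axis, 95% counting intervals) for each member, with circles for the same line's wild type and squares for the other line's. Myc and Ccnd1 are below 1 in all 4 pairings, and E2f1 and Srf are each below 1 by more than their intervals in the IMP2 knockout pairings.

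The proteins that work with the members, and the messages they control, were followed through lists written from general knowledge. Their counts stand against all 14076 genes tested, of which 31.7% were higher and 31.9% lower with IMP1, and 40.3% higher and 37.3% lower with IMP2. Upper quartile scaling gave 2952 higher and 6391 lower of all genes with IMP1, and 4270 and 6436 with IMP2. Total count scaling gave 3086 and 6172 with IMP1, and 6987 and 4238 with IMP2. Medians of all genes were -0.20 (IMP1) and -0.14 (IMP2) under upper quartile scaling, and -0.19 and 0.21 under total count scaling. List counts and list medians under these scalings stand against these values. With IMP1 the median turned below 0 under upper quartile and total count scaling for the MYC partner (-0.15 and -0.14), MYC target (-0.04 and -0.02), SRF target (-0.11 and -0.09), SCF ligase (-0.05 and -0.03) and beta-TrCP substrate (-0.13 and -0.11) lists. With IMP2 it turned below 0 for the pocket protein list under upper quartile scaling (-0.11), and above 0 under total count scaling for the MYC partner (0.04), SRF cofactor (0.02) and beta-TrCP substrate (0.16) lists. Of 16 messages for MYC partners and turnover factors, 7 were higher and 6 lower with IMP1 (median log2 fold change 0.02, all genes tested -0.03), and 4 were higher and 8 lower with IMP2 (median -0.13, all genes 0.04). Upper quartile scaling gave 4 higher and 8 lower with IMP1, and total count scaling 5 and 8. Huwe1, a ubiquitin ligase for MYC, Mga, a MAX partner, and Trrap, a MYC coactivator, were the 3 lowest with IMP2 (log2 fold changes -1.05, -0.98 and -0.89). Usp28, the deubiquitinase that stabilises MYC, led the list with IMP1 (0.57), followed by Trrap (0.51) and Mga (0.39). Max was lower with IMP1 (-0.48), and Mxd3 (-0.68) and Mxd4 (-0.93), whose proteins pair with MAX and antagonise MYC, were the 2 lowest. Mxi1 (0.66), another MAX partner, and Mlx (0.65) were among those higher with IMP2.

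Of 20 MYC target messages, 10 were higher and 6 lower with IMP1 (median 0.13), and 15 were higher and 1 lower with IMP2 (median 0.46). With IMP1 the shares of all genes were 31.7% higher and 31.9% lower. Upper quartile and total count scaling each gave 7 higher and 8 lower in the list. All genes then gave 2952 higher and 6391 lower, and 3086 and 6172. With IMP2 the shares of all genes were 40.3% and 37.3%, and the same scalings gave 14 and 4, and 18 and 1, in the list. All genes then gave 4270 and 6436, and 6987 and 4238. Srm (spermidine synthase), Pa2g4 and Nme1 were the highest with IMP2 (1.19, 1.09 and 1.05), and Cad, the pyrimidine synthesis enzyme, was the 1 that was lower (-0.52). Cad was instead the highest with IMP1 (0.91), ahead of Polr1b (0.75) and Ddx21 (0.62), while the nucleolar protein messages Ncl (-0.91), Fbl (-0.61) and Nop58 (-0.54) were the lowest.
In total RNA, 17 of the 19 MYC targets with at least 10 CPM were below wild type in the IMP1 knockout, with a median ratio of 0.684, where 52.7% of 9785 genes were below (median 0.981). The other wild type as reference gave 13 of 19 and 0.828 (50.7% of all genes below). In the IMP2 knockout 15 of 19 were below, with a median of 0.789, where 51.7% of 9956 genes were below (median 0.985), and the other wild type gave 18 of 19 and 0.641 (52.1% of all genes). All 19 were higher in IMP1 wild type than in IMP2 wild type (median 1.19), where 49.7% of 9525 genes were lower, so the size of the shift depends on the reference. Ldha, lactate dehydrogenase A, was the 1 target past 2-fold, at ratios of 0.449 and 0.442.

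The SRF cofactor messages split. Mrtfb was higher with IMP1 (0.71) and lower with IMP2 (-0.52), Elk3 was lower with IMP1 (-0.36) and higher with IMP2 (0.26), and in all 2 of the 5 tested were higher and 2 lower with IMP1 against 1 and 3 with IMP2. Of 20 SRF target messages, 8 were higher and 3 lower with IMP1 (median 0.06), and 13 were higher and 1 lower with IMP2 (median 0.38), against 31.7% and 31.9% of all genes with IMP1 and 40.3% and 37.3% with IMP2. With IMP1 other scalings gave 6 higher and 7 lower (upper quartile) and 6 and 6 (total count). All genes then gave 2952 higher and 6391 lower, and 3086 and 6172. With IMP2 the same scalings gave 10 and 4, and 16 and 1. All genes then gave 4270 and 6436, and 6987 and 4238. The smooth muscle actin message Acta2 (1.196), the myosin light chain Myl9 (1.13) and transgelin, Tagln (1.04), were the highest with IMP2. Flna, the large actin cross-linker filamin A, was highest with IMP1 (0.79) and lowest with IMP2 (-0.67). Egr1, an immediate-early factor, was the lowest with IMP1 (-0.78).

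In total RNA, of 16 SRF targets with at least 10 CPM, 3 were 2-fold lower and 1 higher in the IMP1 knockout (6.36% and 5.27% of all genes), and 4 were 2-fold lower and 1 higher in the IMP2 knockout (7.54% and 7.63% of all genes). In the IMP1 knockout the immediate-early messages Egr1 (191 to 52.4 CPM, ratio 0.274), Junb (113 to 41.8 CPM, ratio 0.369) and Ccn1 (1676 to 482 CPM, ratio 0.287) were lower. Their ratios in the IMP2 knockout were 1.15, 0.668 and 0.991. In the IMP2 knockout the contractile messages Acta2 (6207 to 735 CPM, ratio 0.118), Tagln (3404 to 561 CPM, ratio 0.165), Cnn1 (560 to 43.6 CPM, ratio 0.0777) and Myl9 (1113 to 441 CPM, ratio 0.396) were lower. Their ratios in the IMP1 knockout were 0.971, 0.594, 0.957 and 1.43. Fos was 4.003-fold higher in the IMP2 knockout (9.43 to 37.7 CPM) and Fhl2 was 2.15-fold higher in the IMP1 knockout. The 7 lower genes were also over 2-fold lower against the other line's wild type, with ratios of 0.247 for Egr1, 0.426 for Junb and 0.357 for Ccn1 in the IMP1 knockout, and 0.0876 for Acta2, 0.112 for Tagln, 0.0691 for Cnn1 and 0.348 for Myl9 in the IMP2 knockout. The Srf message itself differed by less than 1.5-fold in each knockout against its own wild type. Against the other line's wild type it was 1.61-fold lower in the IMP2 knockout, with a ratio of 1.04 in the IMP1 knockout. The difference between the knockouts was not tested, since each is 1 library.

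**Figure D4:**
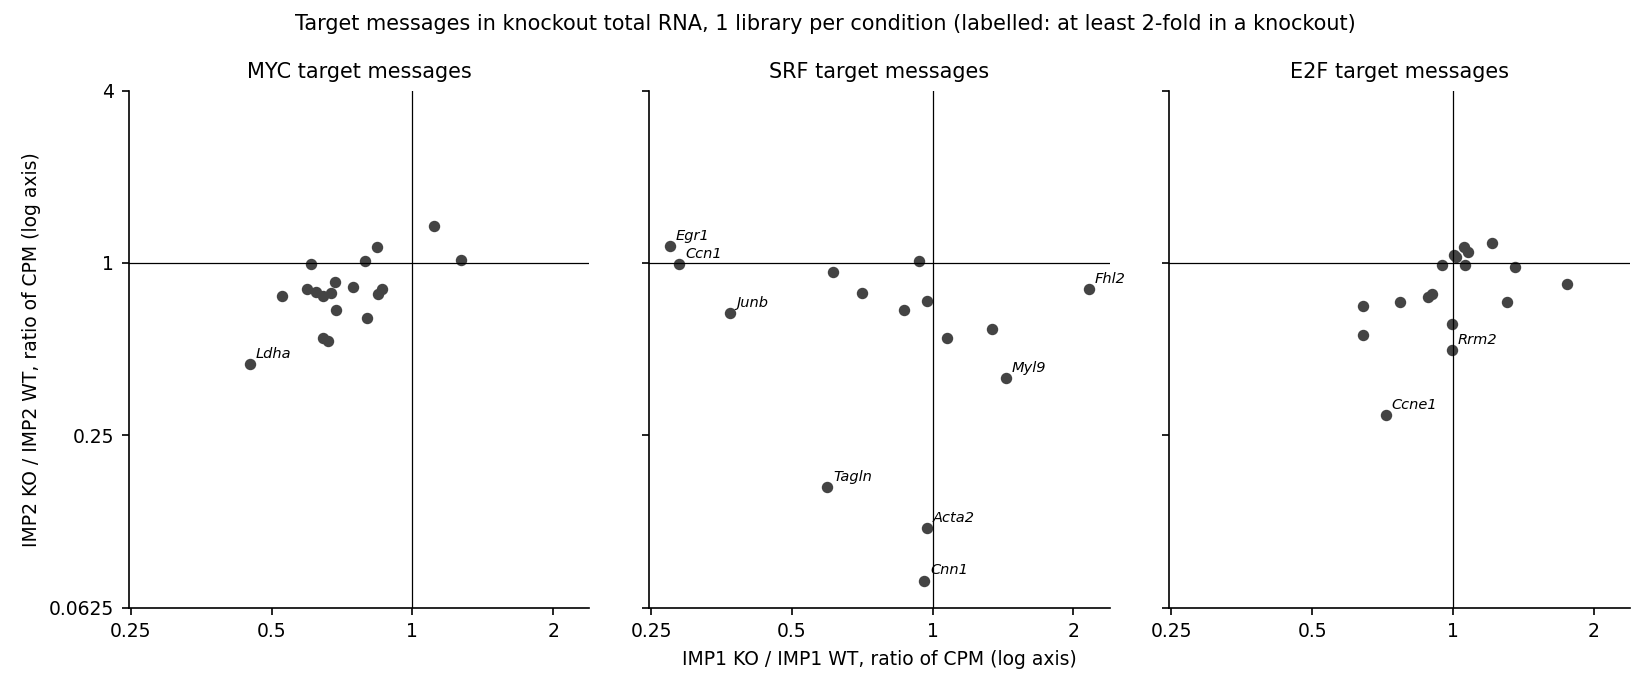
Ratio of knockout to wild-type CPM for MYC, SRF and E2F target messages with at least 10 CPM in both lines, with the IMP1 line on the horizontal and the IMP2 line on the vertical log axis. Most MYC targets lie below 1 on both axes, and SRF targets spread along 2 arms, Egr1, Ccn1 and Junb to the left and Acta2, Tagln and Cnn1 downward.

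Of the 5 messages for E2F partners and pocket proteins, 4 were higher with IMP1 and 1 with IMP2, with 0 lower in either. Upper quartile scaling gave 4 higher and 1 lower with IMP1 and 1 higher and 3 lower with IMP2, and total count scaling 4 and 1 with IMP1 and 5 higher and 0 lower with IMP2. The pocket protein messages Rbl1 (1.11), Rbl2 (0.68) and Rb1 (0.37) and the dimer partner Tfdp1 (0.40) were the 4 with IMP1, and Tfdp1 (0.27) was the 1 with IMP2. Of 22 E2F target messages, 15 were higher and 3 lower with IMP1 (median 0.46), and 16 were higher and 2 lower with IMP2 (median 0.29), against 31.7% and 31.9% of all genes with IMP1 and 40.3% and 37.3% with IMP2. Upper quartile scaling gave 14 and 6 with IMP1 and 12 and 4 with IMP2, and total count scaling 14 and 5 with IMP1 and 20 and 2 with IMP2. Ccne1 (cyclin E1) was at the top with IMP1 (1.08) and was also higher with IMP2 (0.80). The replication helicase messages Mcm6 (0.82) and Mcm3 (0.80) followed with IMP1. Pola1, a DNA polymerase alpha subunit, and Orc1 were the 2 lower with IMP2 (-0.47 and -0.37). In the IMP2 line Ccne1 was 46.0 CPM in wild type and 13.6 CPM in the knockout (ratio 0.295) and Rrm2 was 49.0 and 24.4 CPM (ratio 0.497), and their ratios against IMP1 wild type were 0.219 and 0.303. In that knockout 13 of 18 E2F targets were below wild type (median 0.811; 51.7% of all genes), and 17 of 19 against the other wild type (median 0.675). The IMP1 knockout had 10 of 19 below (median 0.995; 52.7% of all genes) and 0 past 2-fold, but 3 of 19 below and 1 over 2-fold higher against the other wild type (median 1.27). All 19 were higher in IMP1 wild type than in IMP2 wild type (median 1.32), so these counts depend on the reference. Among the E2F paralogs, E2f6 was lower in the IMP2 knockout (ratio 0.395), and in the IMP1 knockout E2f7 was higher (ratio 2.48) and E2f8 lower (ratio 0.420, but 0.595 against the other wild type).

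Cyclin D partners and CDK inhibitors gave 2 higher and 6 lower of 12 with IMP1 (median -0.22) and 7 higher and 3 lower with IMP2 (median 0.38). Upper quartile scaling gave 1 and 8 with IMP1 and 5 and 3 with IMP2, and total count scaling 1 and 8 with IMP1 and 9 and 2 with IMP2. Cdk4, the main kinase partner of cyclin D, was the highest with IMP2 (1.11), and with IMP1 it was 0.15, which turned to -0.02 under upper quartile and -0.01 under total count scaling. The inhibitors Cdkn1c (0.97) and Cdkn1a (0.93) followed with IMP2. Cdk6 was lower with both (-0.51 and -0.75), as was Cdkn1b (-0.30 and -0.42), and Cdkn2a was the lowest with IMP1 (-0.80). In total RNA Cdkn1a, p21, was lower in both knockouts (ratios 0.413 and 0.328) and Cdkn1b, p27, was higher in both (2.27 and 2.05, with 1.89 and 2.45 against the other wild type). Cdkn1c, p57, went opposite ways, from 25.1 to 5.58 CPM in the IMP1 line (ratio 0.222) and from 23.4 to 191 CPM in the IMP2 line (ratio 8.17). Cdkn2d was 2.02-fold higher in the IMP1 knockout, but 1.45-fold against the other wild type.

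BTRC serves a ligase of the SCF type, and the SCF ligase list holds 7 messages, not all for the ligase with BTRC. Of these 7, 4 were higher and 1 lower with IMP1 (median 0.12), and 4 were higher and 2 lower with IMP2 (median 0.91). Upper quartile scaling gave 2 and 2 with IMP1 and 4 and 3 with IMP2, and total count scaling 2 and 2 with IMP1 and 6 and 0 with IMP2. Cks1b (1.09), the RING subunit Rbx1 (0.96) and Nedd8 (0.92) led with IMP2, and the exchange factor Cand1 (0.80) and the scaffold Cul1 (0.75) led with IMP1. Skp2, another F-box protein, was lower with both (-0.26 and -0.22). Messages of 15 beta-TrCP substrates gave 7 higher and 3 lower with IMP1 (median 0.04) and 4 higher and 5 lower with IMP2 (median -0.01), against 31.7% and 31.9% of all genes with IMP1 and 40.3% and 37.3% with IMP2. Under both other scalings there were 4 higher and 7 lower with IMP1. With IMP2 there were 3 higher and 10 lower under upper quartile and 8 higher and 3 lower under total count scaling. Ctnnb1 (beta-catenin) was the highest with IMP1 (0.66), and Atf4 (1.08) the highest and Per2 (-0.88) the lowest with IMP2. In total RNA the mTOR inhibitor Deptor was higher in both knockouts, from 3.39 to 28.3 CPM in the IMP1 line (ratio 8.35) and from 5.57 to 25.3 CPM in the IMP2 line (ratio 4.55), with ratios of 5.08 and 7.48 against the other wild type. Pdcd4 was 2.15-fold higher in the IMP2 knockout.

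**Figure D5:**
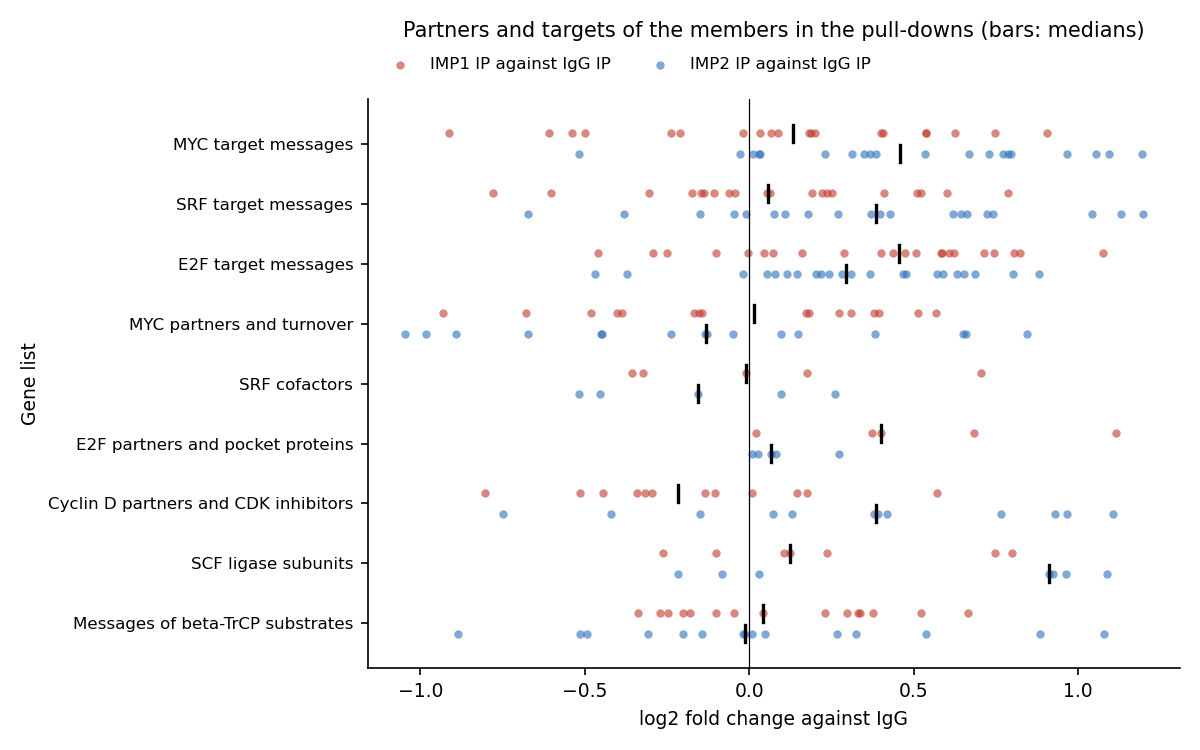
log2 fold change against IgG (horizontal axis) of the genes in 9 lists around the members, with IMP1 in red, IMP2 in blue, 1 point per gene and a black bar for the median. The medians of the SCF ligase, cyclin D partner, MYC target and SRF target lists lie to the right with IMP2 of where they lie with IMP1.

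The genes whose log2 CPM followed each member most closely over the 13 libraries were chosen by Pearson's r among 8765 genes; the libraries share antibodies and lines, so these values are descriptions. For Myc they were Itga6 (r = 0.986), Abl1 (0.973) and Ppan (0.971). For Srf they were Bzw1 (0.942), Ubqln1 (0.941) and Cct8 (0.938). For E2f1 they were Tmem65 (0.957), Nudt5 (0.946) and Fam118b (0.944). For Ccnd1 they were Polr1e (0.969), Exosc9 (0.968) and Phc2 (0.960). For Btrc they were Rab21 (0.918), Rp2 (0.907) and Trappc13 (0.888).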

How the data were processed

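The deposited tables hold raw read counts per Ensembl gene, 1 table per library, with 5 tally lines that were kept out of the library sizes. Per the submitters' processing notes the tools were STAR and HTSeq with mm10; versions and strand setting are not given in the sources used here, and the labels name a TruSeq library kit. Of 43629 gene IDs, 42462 were paired with a symbol. The members and gene lists were chosen with earlier results of these data known. The 9 pull-down libraries were fitted together with edgeR 4.0.16 in R 4.3.3 (filterByExpr, TMM scaling, glmQLFTest, 2-sided, Benjamini-Hochberg over 14076 genes, threshold 0.05). CPM values of pull-downs are scaled by TMM within the 9 libraries, those of total RNA within the 4, and those compared with wild-type total RNA within 11. Single total RNA libraries were compared by CPM ratio with exact binomial 95% intervals, and 2-fold counts used genes with at least 10 CPM in 1 of the 2 libraries. Named list genes were the 3 highest and 3 lowest past the threshold in each pull-down and those past 2-fold in a knockout, with others named where a sentence needed them, after their values were seen. Some genes that meet this rule are not reported here by name. Alternatives were DESeq2 1.42.0, limma 3.58.1, other scalings and filters, a replicate block and leaving out each library. The edgeR step was tested on simulated data. No replicate pair was a duplicate. Promoter sequences come from RefSeq (GRCm38.p6).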

Additional observations from a re-analysis of the deposited data

Results flagged for a closer look

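The response of 3 members differed between the 2 antibodies by the direct test of IMP1 against IMP2, in which 34.1% of all genes tested were higher and 37.3% lower, so 3 of 5 does not set the members apart. The log2 fold change was 0.49 for Myc, -1.004 for E2f1 and -0.27 for Ccnd1, with the 3 libraries of 1 antibody all on the same side of the 3 of the other in each case. Under total count scaling the values were 0.16 for Myc and -0.59 for Ccnd1. The IgG libraries are not a side of this comparison, but they share its fit, scaling and estimate of spread. With only the IMP1 and IMP2 libraries fitted, the log2 fold changes were 0.53 for Myc, -0.97 for E2f1 and -0.23 for Ccnd1. Each of these passed the threshold.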

How the results depend on the processing

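Of 280 recomputed log2 fold changes, 239 kept their direction and side of the threshold, 19 reversed, 17 lost and 5 gained the threshold. The count of members called ranged from 3 to 5 in each of the 3 comparisons. Of 30 recomputed ratios in total RNA, 24 stayed within the counting interval, among them E2f1 in the IMP1 knockout, which crossed 1 (1.04 to 0.991). Upper quartile scaling moved the median of all genes by -0.17 (IMP1 against IgG) and -0.18 (IMP2 against IgG), and total count scaling by -0.15, 0.17 and, for IMP1 against IMP2, -0.33; higher calls were 49.8% of calls with IMP1 and 51.9% with IMP2, and became 31.6% and 39.9% under upper quartile and 33.3% and 62.2% under total count scaling, and for IMP1 against IMP2 47.7% became 27.8%. Under upper quartile scaling the log2 fold change against IgG was 0.0074 for Btrc and -0.11 for Ccnd1 with IMP1. With IMP2 it was -0.16 for Myc, -0.024 for Btrc and 0.10 for E2f1. Ccnd1 with IMP1 and Myc with IMP2 passed there as lower. Under total count scaling the log2 fold change against IgG was 0.025 for Btrc and -0.089 for Ccnd1 with IMP1 and 0.20 for Myc with IMP2. Ccnd1 with IMP1 passed there as lower and Myc with IMP2 as higher. IMP1 against IMP2 under total count scaling gave -0.30 for Btrc and -0.30 for Srf, and 5 members called in place of 3. Of 14076 genes, 2908 were then called higher and 7544 lower. DESeq2 size factors gave -0.042 for Myc and 0.090 for Btrc with IMP2, and the DESeq2 Wald test 0.19 for Btrc with IMP1 and -0.011 for Myc and 0.12 for Btrc with IMP2. With no count filter, Ccnd1 was 0.12 with IMP1, Myc 0.11 and Btrc 0.25 with IMP2, and Btrc -0.011 and Srf -0.0072 in IMP1 against IMP2. The filter at 10 CPM gave 0.036 for Btrc, -0.078 for Ccnd1 and 0.22 for Srf with IMP1. With IMP2 it gave -0.15 for Myc, which passed as lower, -0.018 for Btrc, 0.11 for E2f1, 0.16 for Srf and 0.16 for Ccnd1. Fitting only the groups compared gave -0.021 for Myc and 0.11 for Btrc with IMP2. With wild-type total RNA as background the values were 0.14 for Srf and -0.029 for Ccnd1 with IMP1, and 0.43 for Myc, 0.13 for Btrc and 0.070 for Srf with IMP2. Leaving out 1 library at a time ranged from 0.14 to 0.22 for Btrc and 0.059 to 0.087 for Ccnd1 with IMP1, from -0.029 to 0.098 for Myc and 0.12 to 0.20 for Btrc with IMP2, and from -0.025 to 0.077 for Btrc in IMP1 against IMP2. The Btrc call was lost without IgG replicate 2 or IMP1 replicate 1 (IMP1), and without IgG replicate 2, IMP1 replicate 3 or IMP2 replicate 2 (IMP2); Ccnd1 passed with IMP1 (0.078) without IMP2 replicate 1. With the other wild type as reference the ratios were 0.431 for Myc, 1.04 for Srf and 0.669 for Ccnd1 in the IMP1 knockout and 0.550, 0.621 and 0.668 in the IMP2 knockout. The cause of these shifts was not tested. Deviations of pull-down libraries from their group means were compared across antibodies by correlation. Same-numbered pull-downs gave r of -0.0587 to 0.0733 and differently numbered ones -0.0515 to 0.0512. These values show no clear pairing by number, but they cannot tell whether same-numbered pull-downs shared a culture. The replicate block left 4, 4 and 3 members called in the 3 comparisons. All 14076 genes then gave 4494 higher and 4523 lower, 5699 and 5262, and 4799 and 5268. The log2 fold changes with IMP2 against IgG without IMP2 replicate 1 were 0.33 for Srf, 0.24 for E2f1 and 0.32 for Ccnd1. They were 0.20 for Btrc and 0.05 for Myc, and only Myc did not pass. List counts under each scaling were added after seeing the data.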
